A study of Mus musculus with 4 samples.

Results

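Cycling Wt1 cells were barcodes of mouse ascites that carried UMIs of Wt1 and its companion genes together with UMIs of a proliferation gene. They were chosen from the counts by a fixed rule. A barcode needed 1000 to 4800 detected genes, at most 15% mitochondrial UMIs, at least 5 UMIs in sum of Wt1, Zfpm2, Kcnd2, Tenm3 and Bnc2, at most 1 UMI in sum of the leukocyte genes Ptprc, C1qa, Cd79a and Cd3e, and at least 1 UMI in sum of Mki67, Top2a and Cdk1. Of 133849 barcodes in 4 libraries, 37844 passed the limits on genes and mitochondrial UMIs (kept cells), 2389 of these met the Wt1 part of the rule (Wt1 cells), and 349 were also cycling. The other 2040 Wt1 cells had no UMI of the 3 cycling genes and are called non-cycling. Because the counts of these genes chose the cells, their levels, and every difference between cycling and non-cycling cells, are given as a description with no test.

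The cells came from ascites of female FVB mice, taken 6 weeks after Br-Luc cells were injected. Br-Luc is a mouse ovarian cancer line that lacks p53 and Brca1 and carries Myc and myristoylated Akt (p53-/-; brca1-/-; myc; Akt-myr). All mice of both groups carried these tumor cells, and all received a jetPEI-formulated siRNA with locked nucleic acid (LNA) modification, which was a control siRNA in the siCont-LNA group and an siRNA against Fxr1 in the siFXR1-LNA group. Each group had 2 libraries, and by the study's methods each library was a pool of ascites from 3 mice, so p-values measure the spread between pools. Ascites holds shed tumor cells beside mesothelial cells of the host, and the labels do not say which of these a barcode is. Fxr1, the targeted gene (chromosome 3, 34019943 to 34070322 on GRCm38), had 121 and 153 CPM (counts per 1000000 UMIs of the summed cells) in the cycling Wt1 cells of the siCont-LNA pair, replicate 1 first, against 131 and 95.5 CPM for the siFXR1-LNA pair. Over all kept cells it had 67.3 and 56.6 CPM against 95.2 and 74.8 CPM. Since the target was not lower over all cells of the libraries labelled siFXR1-LNA, the groups are named by their labels throughout.

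Wt1 encodes a zinc finger transcription factor of the mesothelium and of the ovarian surface, and it is also a marker of serous ovarian cancer. A cell that divides first copies its DNA in S phase, when E2F factors switch on genes for nucleotide supply and replication such as Mcm5, Rrm2 and Tyms. It then builds a spindle in G2 and mitosis, when the kinesins, centromere proteins and B-type cyclins are made from promoters that the DREAM complex and B-Myb-FoxM1 complex bind. Mki67 and Top2a mark nearly all cycling cells and peak in G2 and mitosis, as does Cdk1, the mitotic kinase.

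Promoters of cell-cycle genes are shown because the genes that stood highest in the cycling cells shared short sequences in them. The sequences are RefSeq promoters of GRCm38.p6, from 250 bases before to 50 bases after the gene start, written 5′ to 3′ on the gene's strand. Capitals mark matches on either strand to the CHR element (TTTGAA or TTCGAA), to CCAAT, and in Mcm5 to the E2F letters (TTTGGCGC, TTTCCCGC, TTTGGCGG or TTTCGCGC), of which adjoining matches overlap. A match on the other strand appears as its reverse complement, as both do in Kif11. Ccnb2 (cyclin B2, minus strand of chr9:70421505-70421804), Cenpf (a centromere protein, minus strand of chr1:189688037-189688336) and Kif11 (a spindle kinesin, plus strand of chr19:37376132-37376431) are examples of the mitotic genes, and Mcm5 (a subunit of the replicative helicase, plus strand of chr8:75109259-75109558) of those of S phase. Not every such gene had these matches. The cyclin B1 gene Ccnb1 had 0 CHR matches, and Rrm2 had 0 E2F matches.
Ccnb2: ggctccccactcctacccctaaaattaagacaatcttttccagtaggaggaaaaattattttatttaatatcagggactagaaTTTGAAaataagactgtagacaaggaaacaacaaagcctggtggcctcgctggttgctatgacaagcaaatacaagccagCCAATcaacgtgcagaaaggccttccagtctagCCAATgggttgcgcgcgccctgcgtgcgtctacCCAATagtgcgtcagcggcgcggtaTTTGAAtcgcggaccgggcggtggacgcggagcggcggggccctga
Cenpf: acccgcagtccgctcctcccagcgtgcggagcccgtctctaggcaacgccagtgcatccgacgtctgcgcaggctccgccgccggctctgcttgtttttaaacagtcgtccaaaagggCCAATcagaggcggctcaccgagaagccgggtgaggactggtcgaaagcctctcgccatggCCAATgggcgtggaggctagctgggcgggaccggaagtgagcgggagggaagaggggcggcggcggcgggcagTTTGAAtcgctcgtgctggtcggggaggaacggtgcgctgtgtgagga
Kif11: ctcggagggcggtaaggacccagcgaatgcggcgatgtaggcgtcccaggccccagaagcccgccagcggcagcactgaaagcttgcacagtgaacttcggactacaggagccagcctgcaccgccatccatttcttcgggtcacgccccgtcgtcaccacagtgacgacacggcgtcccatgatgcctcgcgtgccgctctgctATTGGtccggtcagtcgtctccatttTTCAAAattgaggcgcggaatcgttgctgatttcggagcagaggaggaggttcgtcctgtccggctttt
Mcm5: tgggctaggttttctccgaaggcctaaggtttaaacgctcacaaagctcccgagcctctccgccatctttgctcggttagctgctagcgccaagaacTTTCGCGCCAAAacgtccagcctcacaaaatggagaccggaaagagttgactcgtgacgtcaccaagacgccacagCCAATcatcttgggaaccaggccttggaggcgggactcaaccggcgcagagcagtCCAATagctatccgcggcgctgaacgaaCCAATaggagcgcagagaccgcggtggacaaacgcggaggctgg
The promoter table held 10 of the 12 genes with the highest cycling to non-cycling ratio, and 8 of these 10 had a CHR match and 9 a CCAAT match. Among the 47 promoters found for the 53 genes of a G2/M list, 74.5% had a CHR match, 78.7% a CCAAT match and 63.8% both. Of all 27025 promoters of this length, 19.4% had a CHR match, 37.9% a CCAAT match and 7.70% both. The 32 promoters found for the 44 genes of an S-phase list had a CHR match in 18.8%, a CCAAT match in 68.8% and an E2F match in 40.6%, against 2.42% of all promoters with an E2F match. A match is a run of letters and not a measured binding site.

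The 349 cycling Wt1 cells were spread unevenly over the libraries. siCont-LNA replicate 1 held 210 and siCont-LNA replicate 2 held 8, while siFXR1-LNA replicate 1 held 111 and siFXR1-LNA replicate 2 held 20. Their summed depth was 1577852, 71664, 807589 and 198862 UMIs in that order, so values of siCont-LNA replicate 2 rest on the least material. A count of 3 UMIs, the most that 0 UMIs allow, was 41.9 CPM in that library. The median depth per cell was 6610, 9504, 6403 and 7504 UMIs, and the median share of mitochondrial UMIs was 0.92%, 0.10%, 1.93% and 2.68%. Of the members, 17, 1, 19 and 3 had a barcode sequence that also occurred in another library, and 0 were members in another library too.

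Wt1 itself was found in 336 of the 349 cells, Zfpm2 in 340, Kcnd2 in 322, Tenm3 in 293 and Bnc2 in 307. The sum of the 5 genes had a median of 61 UMIs per cell and ran from 5 to 394, far above the limit of the rule in most cells, and 11 cells lay just inside it with 5 UMIs while 39 barcodes with 4 UMIs were otherwise eligible. siFXR1-LNA replicate 2 stood lowest, with a median of 28 UMIs and Wt1 in 80.0% of its cells, while Wt1 was found in 97.6%, 100% and 96.4% of the cells of the other libraries. The 6 mesothelial markers that the rule did not use (Msln, Upk3b, Lrrn4, Gpm6a, Bnc1 and Muc16) summed to 1503, 1200, 667 and 900.1 CPM in the cycling cells and to 236, 49.7, 246 and 97.0 CPM in the other kept cells. They were higher in the cycling cells of each library. Program UMIs also occurred outside the Wt1 cells. Of barcodes with at least 2 UMIs of the B cell gene Cd79a, 41.4%, 15.2%, 49.6% and 44.7% had at least 1 UMI of the 5 program genes, and 2.09%, 0.24%, 4.27% and 1.05% reached the 5 UMIs of the rule. The rule's leukocyte genes left a single UMI in 101 of the cells, and 41 barcodes with 2 such UMIs were otherwise eligible. C1qa, a complement gene of macrophages, had a UMI in 61 of the 349 cells, Ptprc in 31, Cd79a in 7 and Cd3e in 2. Lists of 8 B cell and 10 T and NK cell markers summed to at most 41.8 and 35.2 CPM in any library's members.

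The word cycling was met less evenly. Of the 349 cells, 210 entered with a single UMI of Mki67, Top2a or Cdk1, 73 had 2 to 4 UMIs and 66 had 5 or more. Top2a had a UMI in 207 cells, Mki67 in 176, Cdk1 in 120, and all 3 genes together in 45. Cells with a single UMI made up 54.8%, 37.5%, 68.5% and 80.0% of the members in the order given above. Summed over a G2/M list of 50 genes without the 3 rule genes, cells with a single UMI had 1375, 918, 1236 and 1264 CPM in the 4 libraries, close to the 1214, 885, 1106 and 1129 CPM of the non-cycling cells. At 2 to 4 UMIs the sum was 3422, 5640, 2064 and 3003 CPM. With 5 or more UMIs it reached 9484, 4640, 9088 and 10241 CPM, from 43, 2, 20 and 1 cells. On the S-phase list (44 genes) the values were 1161, 486, 785 and 626 CPM at a single UMI, with 1025, 720, 712 and 733 CPM at 0 UMIs and 3588, 3997, 2437 and 2252 CPM at 5 or more. The single-UMI cells thus lay near the non-cycling cells on both lists, and higher levels began at 2 UMIs.

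**Figure D1:**
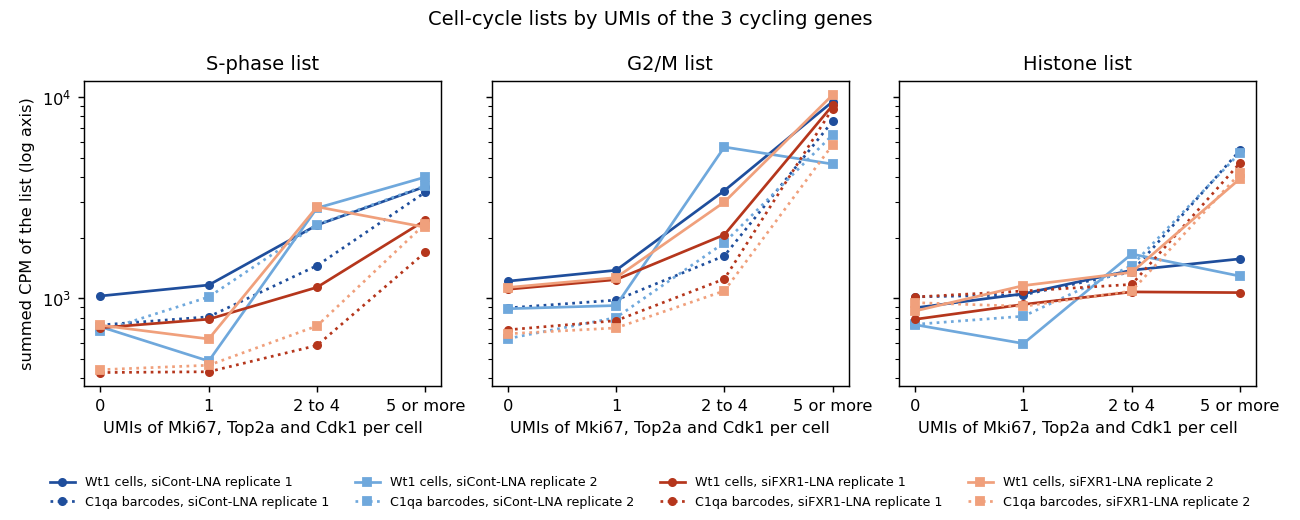
Summed CPM (log axis) of the S-phase, G2/M and histone lists, without the 3 rule genes, against the number of UMIs of Mki67, Top2a and Cdk1 per cell, for Wt1 cells (solid lines) and C1qa barcodes (dotted lines) of the 4 libraries. The G2/M sum of Wt1 cells was 918 to 1375 CPM at 1 UMI and 4640 to 10241 CPM at 5 or more, where the libraries held 43, 2, 20 and 1 cells. On the histone list the Wt1 cells with 5 or more UMIs lie below the C1qa barcodes in each library.

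The share of Wt1 cells that met the cycling rule was highest in siCont-LNA replicate 1. It was 34.4% there (exact binomial 95% interval 30.6 to 38.3), 8.60% (3.79 to 16.2) in siCont-LNA replicate 2, 8.26% (6.84 to 9.86) in siFXR1-LNA replicate 1 and 5.87% (3.62 to 8.91) in siFXR1-LNA replicate 2. These intervals cover counting error only. Both libraries labelled siFXR1-LNA lay below both labelled siCont-LNA, but siCont-LNA replicate 2 and siFXR1-LNA replicate 1 were separated by far less than their intervals. The means were 21.5% ± 18.2 (SD, n = 2) for siCont-LNA against 7.06% ± 1.69 (SD, n = 2) for siFXR1-LNA, a difference of -14.4 percentage points (two-sided exact permutation p = 0.33, the smallest that 2 libraries against 2 allow). Without siCont-LNA replicate 1 the difference was -1.54 points.

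The upper limit of 4800 genes removed many of the deepest Wt1 cells, and it did so unequally. Barcodes above it that met every other part of the rule numbered 43, 26, 22 and 45, which is 17.0%, 76.5%, 16.5% and 69.2% of the cells that would otherwise have been members. These 136 barcodes had a median of 25419 UMIs, and 92 of them had at least 2 cycling UMIs. Without the upper limit the cycling share was 37.2% and 21.0% under the siCont-LNA label and 9.40% and 12.7% under the siFXR1-LNA label, and siCont-LNA replicate 2 no longer lay beside siFXR1-LNA replicate 1 (difference -18.1 points, exact permutation p = 0.33). With no upper limit and at least 2 cycling UMIs, a setting chosen after seeing the data, the shares were 18.4%, 14.8%, 3.53% and 6.24%. Thinning every Wt1 cell to 2000 UMIs dropped 17, 1, 27 and 4 cells of lower depth and gave 17.0%, 5.43%, 3.72% and 1.19%. The libraries labelled siFXR1-LNA lay below both others in each of these settings (exact permutation p = 0.33 for each). With likely doublets removed (the top 5% of Scrublet scores) the groups overlapped, at 34.7%, 7.87%, 8.12% and 5.20% (exact permutation p = 0.667).

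Deeper cells were more often cycling by the rule. Among Wt1 cells of 2000 to 5000 UMIs the share was 28.6% and 5.88% under the siCont-LNA label and 5.50% and 1.03% under the siFXR1-LNA label. At 5000 to 10000 UMIs it was 34.6% and 8.33% against 8.94% and 7.53%. At 10000 to 20000 UMIs it was 49.3% and 14.3% against 22.9% and 7.26%. In both of these middle ranges the groups overlapped. Among those of at least 20000 UMIs, with no upper limit on genes, it was 67.5% and 39.0% against 23.5% and 31.0%. The cycling UMIs were also counted in barcodes of other cell types in the same libraries. Barcodes with at least 2 UMIs of Cd79a had a UMI of the 3 cycling genes in 29.8%, 11.5%, 8.93% and 8.53%, at a median depth of 3371, 4038, 2655 and 2768 UMIs, against 5567, 8927, 5048 and 6786 UMIs in Wt1 cells. In barcodes with at least 2 UMIs of C1qa the shares were 35.2%, 25.5%, 16.1% and 16.6%. At 1 UMI or more the share in Wt1 cells was below that in C1qa barcodes in each of the 4 libraries. At 2 UMIs or more, Wt1 cells had 15.5%, 5.38%, 2.60% and 1.17%, C1qa barcodes 11.98%, 11.8%, 2.86% and 4.05%, and Cd79a barcodes 7.21%, 2.00%, 0.89% and 1.49%. There the Wt1 cells were above the C1qa barcodes in siCont-LNA replicate 1 and below them in the other 3 libraries. What part of the difference between the libraries came from free RNA in the droplets was not tested.

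**Figure D2:**
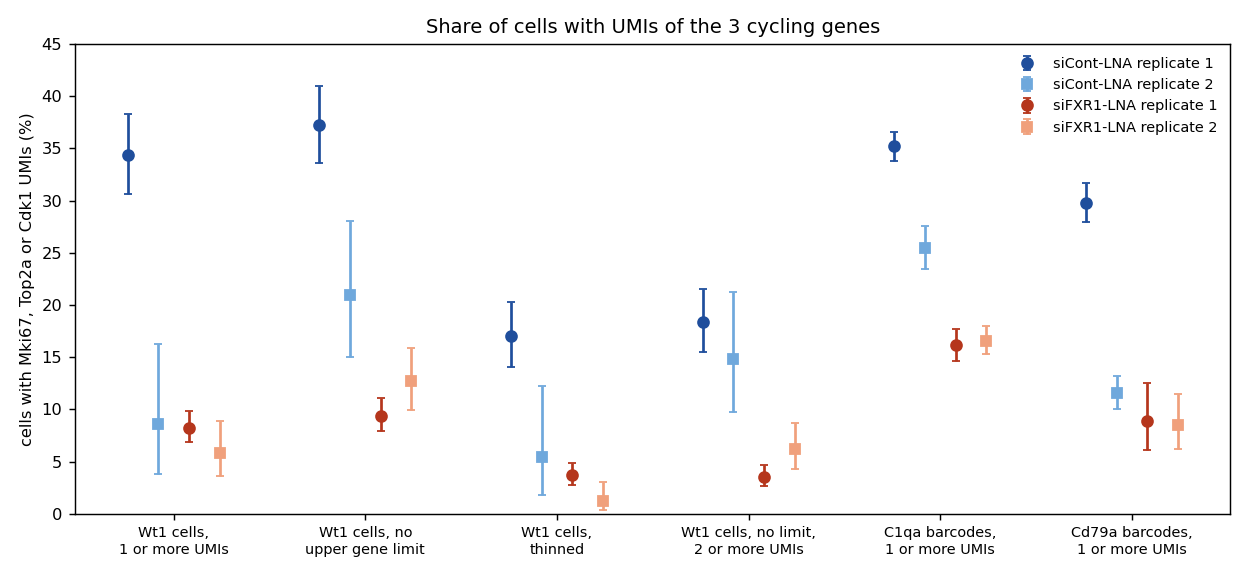
Percent of cells with UMIs of Mki67, Top2a or Cdk1 in each library (points, with exact binomial 95% intervals), for Wt1 cells under 4 settings and for C1qa and Cd79a barcodes. siCont-LNA replicate 1 is highest in all 6 columns, and the libraries labelled siFXR1-LNA lie below both labelled siCont-LNA in all 6, by the least in the first column (8.60% against 8.26%).

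Of all kept cells, cycling Wt1 cells made up 1.99% and 0.12% under the siCont-LNA label and 0.98% and 0.21% under the siFXR1-LNA label. The groups overlapped (difference -0.46 points, exact permutation p = 1.00), and the sign turned to 0.471 points without siCont-LNA replicate 1.

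Genes of the spindle and the centromere stood furthest above the non-cycling cells. The following ratios are log2 of CPM plus 5 in cycling over non-cycling cells of the same library, for genes with at least 50 UMIs outside the rule. Cenpf led with a mean ratio of 3.44. It had 196 and 195 CPM in cycling cells of the siCont-LNA label against 156 and 25.1 CPM under the siFXR1-LNA label, against 18.7, 3.87, 4.41 and 2.03 CPM in non-cycling cells. The gene Tpx2, which activates Aurora A on spindle microtubules, had 108, 209, 90.4 and 20.1 CPM against 11.2, 2.58, 4.55 and 1.22 CPM. In every library the cycling cells were higher, and siFXR1-LNA replicate 2, in which 80.0% of the members had a single cycling UMI, had the smallest ratio of both genes.

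Kif11, the kinesin that pushes spindle poles apart, had 167, 83.7, 94.1 and 30.2 CPM in cycling cells. Cenpa, the histone H3 variant of centromeres, had 137, 126, 64.4 and 65.4 CPM. Ccnb2, whose promoter is shown above, had 60.8, 140, 37.1 and 65.4 CPM, against 8.36, 6.44, 2.28 and 2.43 CPM in non-cycling cells. The other genes among the 12 highest were Aspm, Racgap1, Ect2, Hmmr, Dlgap5, Cit and Cenpe, most of them known in spindle assembly or in cytokinesis, and the lowest mean ratio among the 12 was 2.89 (Cenpe). In siCont-LNA replicate 2 these genes came from few cells, for example 9 UMIs of Cenpe in 3 of the 8 cells and 15 UMIs of Tpx2 in 4.

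**Figure D3:**
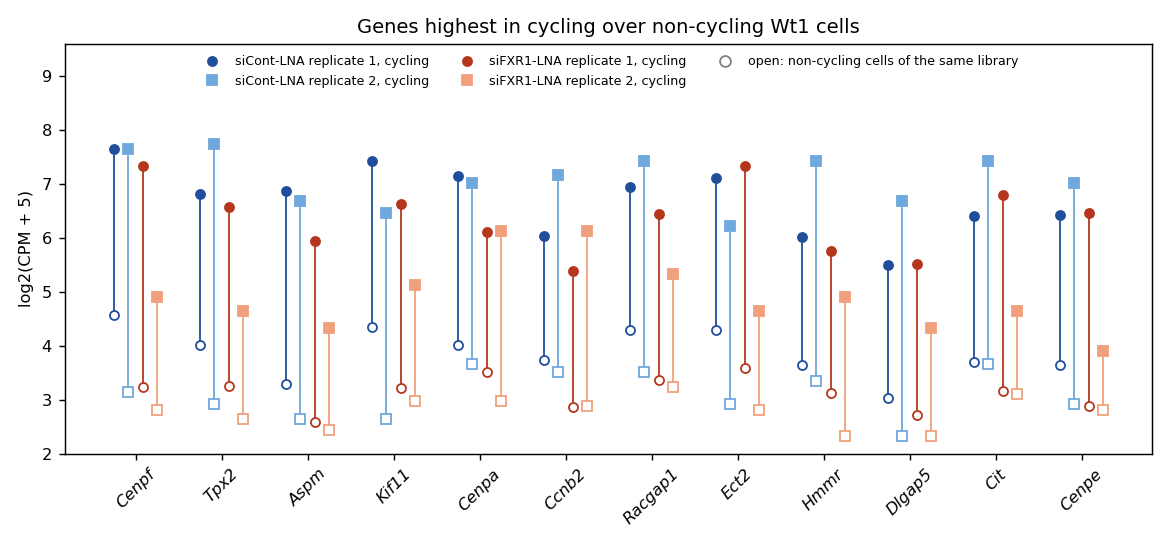
log2(CPM + 5) of the 12 genes with the highest mean ratio of cycling (filled) to non-cycling (open) Wt1 cells, joined by a line within each of the 4 libraries. Every filled point lies above its open point, and the lines of siFXR1-LNA replicate 2 are the shortest for Cenpf (2.10) and Tpx2 (2.01).

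As a list, G2/M genes were higher more often than S-phase genes in number. Of 49 G2/M genes with at least 50 UMIs, 33 (67.3%) were higher in the cycling cells of all 4 libraries and 0 were lower in all 4, with a median ratio of 1.98. Of 40 S-phase genes 22 (55.0%) were higher and 0 lower, with a median of 0.83. Over the 12017 genes with this many UMIs, 6.90% were higher in all 4 libraries and 11.3% lower, with a median of -0.09. Because the rule picked cells by 3 G2/M genes, the 2 lists are not independent of the rule. The S-phase gene Mcm5 had 23.4, 27.9, 16.1 and 10.1 CPM in cycling cells against 9.16, 2.58, 1.85 and 3.24 CPM in non-cycling cells. Mcm6 had 69.7, 41.9, 44.6 and 35.2 CPM against 51.7, 24.5, 26.9 and 25.9 CPM. Pcna, the sliding clamp of replication, hardly differed, with ratios of 0.03, -0.20, 0.70 and -0.48.

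Genes of replication and homologous repair followed. Of 26 with at least 50 UMIs, 15 were higher in the cycling cells of all 4 libraries and 0 lower, with a median of 1.15. Of 19 cohesin and condensin genes 6 were higher in all 4 and 0 lower. Brca1, which Br-Luc cells lack by genotype, had 83, 4, 30 and 0 UMIs in the cycling cells (52.6, 55.8, 37.1 and 0 CPM) and 8.76, 7.73, 1.56 and 3.65 CPM in the non-cycling cells. Trp53 had 193, 15, 44 and 19 UMIs in cycling cells and was found in 114 of 210, 7 of 8, 33 of 111 and 10 of 20 of them. The 3′ counts do not show whether the part of either gene that is deleted in the line was present, so these UMIs do not tell tumor cells from host cells.

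Targets of p53 were not higher as a list. Of 19 measured, 0 were higher in all 4 libraries and 4 were lower, with a median ratio of -0.03. Cdkn1a, the Cdk inhibitor p21, had 78.0, 27.9, 130 and 101 CPM in cycling and 77.6, 50.3, 131 and 81.9 CPM in non-cycling cells. Interferon and MHC class I genes were lower in all 4 libraries for 7 of 23 (30.4%, against 11.3% of all genes) and higher for 0. Summed over 24 genes, however, the list was lower only in siCont-LNA replicate 1. It had 1459, 2386, 941 and 2102 CPM in cycling against 1887, 1843, 851 and 1308 CPM in non-cycling cells. In the cycling cells 0, 6, 2 and 8 of these genes were at 0 UMIs. The 12 genes lowest in the cycling cells, with Mylk, Inha, H2-Eb1, Rora and Prg4 first, had at most a few UMIs in the 8 cells of siCont-LNA replicate 2. Inha, an inhibin subunit, had 77.3, 0, 12.4 and 0 CPM in cycling against 109, 55.4, 21.8 and 35.3 CPM in non-cycling cells, and its ratio in siCont-LNA replicate 1 was -0.48.

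Histone transcripts were fewer in Wt1 cells with many cycling UMIs than in C1qa barcodes with as many. A list of 15 histone genes, of which most are made in S phase, summed to 1567, 1286, 1065 and 3922 CPM in Wt1 cells with at least 5 cycling UMIs (43, 2, 20 and 1 cells). In C1qa barcodes with at least 5 cycling UMIs it summed to 5427, 5277, 4697 and 4173 CPM (148, 117, 11 and 24 barcodes). The Wt1 cells were lower in 4 of 4 libraries, by a mean of -1.51 on the log2 scale (two-sided exact sign-flip permutation over libraries, p = 0.125, the smallest that 4 libraries allow). The single cell of siFXR1-LNA replicate 2 lay only 0.089 below on that scale, so the difference rests on the other 3 libraries. On the G2/M and S-phase lists the same cells did not stand apart in 1 direction, with mean log2 differences of 0.18 and 0.18 (exact sign-flip permutation p = 0.625 and 0.25). With at least 2 cycling UMIs the histone difference was -0.59 (lower in 3 of 4 libraries, exact sign-flip permutation p = 0.25).

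Both libraries labelled siFXR1-LNA had fewer S-phase transcripts relative to G2/M transcripts. Dividing the summed CPM of the S-phase list by that of the G2/M list gave 0.522 and 0.624 in the siCont-LNA pair against 0.369 and 0.441 in the siFXR1-LNA pair (difference -0.168, two-sided exact permutation p = 0.33, the smallest possible). Without the upper limit on genes the ratios were 0.511, 0.460, 0.453 and 0.416 (difference -0.0511). With at least 2 cycling UMIs and no upper limit they were 0.458, 0.429, 0.407 and 0.368. Thinned cells gave 0.553, 0.780, 0.398 and 0.609, and there the groups overlapped (exact permutation p = 0.667). The lower ratio was not particular to the cycling cells. In non-cycling Wt1 cells the S-phase list summed to 1025, 720, 712 and 733 CPM and the G2/M list to 1214, 885, 1106 and 1129 CPM. In the other kept cells the sums were 991, 918, 522 and 504 CPM and 1445, 1180, 989 and 910 CPM. Both libraries labelled siFXR1-LNA had the lower ratio there too.

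Between the groups, 77 genes differed in the cycling Wt1 cells, led upward by genes such as Chil3, Retnlg and Cxcl2 and downward by mast cell genes. The comparison sets the libraries labelled siFXR1-LNA against those labelled siCont-LNA, with the UMIs of all members summed per library. Of the 349 members, 210 had a single cycling UMI. Of 7996 genes tested, 0.963% passed an adjusted p of 0.05 (edgeR, quasi-likelihood, adjusted after Benjamini and Hochberg), 62 (0.775%) higher and 15 (0.188%) lower in the libraries labelled siFXR1-LNA, and 654 had an unadjusted p under 0.05. The groups did not overlap in any of the 77, which held for 18.0% and 20.0% of all genes tested in the upward and downward direction. Of the 62 rises, 48 were at a higher CPM in the other kept cells of both libraries labelled siFXR1-LNA than in the cycling Wt1 cells, and 38 had 0 UMIs in the 8 cells of siCont-LNA replicate 2. In the non-cycling Wt1 cells, 58 of the 62 rises and 14 of the 15 falls were called in the same direction. Of all genes tested there, 3.8% were called higher and 5.08% lower. Most of the 77 differences were thus not particular to the cycling cells. On the marker lists of other cell types stood 7 of the rises (4 neutrophil, 2 macrophage and 1 platelet gene) and 4 of the falls. Without siFXR1-LNA replicate 2 the test passed 29 genes. With no upper limit on genes per cell it passed 24, and with at least 2 cycling UMIs 11.

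Chil3, a chitinase-like protein of myeloid cells, had 0 UMIs in both libraries labelled siCont-LNA and 135 and 69 UMIs (167 and 347 CPM) in those labelled siFXR1-LNA, at least 111-fold higher against a floor of 3 counts over both libraries. The other kept cells had 13.8, 212, 1076 and 1431 CPM of it. Retnlg, a resistin-like gene of neutrophils, had 0, 0, 228 and 151 CPM, at least 117-fold higher by the same floor, and 15.5, 348, 953 and 1293 CPM in the other kept cells. Of the 62 rises 7 were at 0 UMIs in both libraries labelled siCont-LNA, and the other 5 were Clec4e (a C-type lectin of myeloid cells, at least 51.4-fold higher), Cstdc4 (at least 42.1-fold), the chemokine Cxcl3 (at least 41.5-fold), Acod1, which makes itaconate in activated macrophages (at least 37.7-fold), and the chemokine Ccl3 (at least 14.2-fold). In siFXR1-LNA replicate 2, 57 of the 60 UMIs of Clec4e came from 1 barcode, which had 0 UMIs of Wt1 and 330 of macrophage markers. Without the 3 leading barcodes that are described with the interaction genes, the bounds were 21.0-fold for Clec4e, 22.2-fold for Acod1 and 26.7-fold for Cxcl3, and those of the other 4 genes moved by less than 1.5 times. Of the 5 Ccl3 UMIs in siFXR1-LNA replicate 2, however, 0 remained, and Ccl3 was called in 3 of 14 alternatives.

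The neutrophil chemoattractant Cxcl2 had 1 UMI in the cycling cells labelled siCont-LNA and 250 in those labelled siFXR1-LNA, a ratio of 410 with a counting interval of 72.9 to 16248. For Wfdc21 the counts were 1 and 162 UMIs, for Ms4a4a 1 and 74, and for Mmp9 (a gelatinase of neutrophils) 1 and 61. In siFXR1-LNA replicate 2 the leading barcodes of that library held most of these UMIs, and without them 9 of 94 remained for Cxcl2, 16 of 72 for Wfdc21, 5 of 45 for Ms4a4a and 3 of 22 for Mmp9. Slpi, an inhibitor of neutrophil elastase, had 29.8 and 0 CPM against 155 and 4868 CPM, and 880 of the 968 UMIs in siFXR1-LNA replicate 2 came from a single barcode (170 CPM without the 3 leading barcodes). Of 11 neutrophil markers 4 were tested and all 4 were higher in the libraries labelled siFXR1-LNA. A gene such as Retnlg, with 0 UMIs under the siCont-LNA label, could pass the low-count filter only through the libraries labelled siFXR1-LNA. The count of 4 is therefore a description and no support. With no filter on low counts 8 markers were tested, of which 4 were higher and 0 lower. The list summed to 13.3, 140, 1824 and 1131 CPM in the cycling Wt1 cells and to 425, 2988, 6562 and 10052 CPM in the other kept cells, and 7, 9, 3 and 4 of its genes were at 0 in the cycling cells. The macrophage list of 10 genes summed to 646, 209, 1152 and 2982 CPM in the cycling cells and to between 12732 and 24588 CPM in the other kept cells, and of 7 tested 2 (Csf1r and Arg1) were higher. The part that RNA of leukocytes in the same droplets had in these rises was not tested.

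Among the 15 falls, 4 were mast cell genes. Of 5 mast cell markers tested, Mcpt4, Tpsb2, Cma1 and Cpa3, all made in mast cell granules, were lower and 0 higher. Cma1, a chymase, had 219 and 126 CPM in cycling Wt1 cells of the siCont-LNA label against 8.67 and 10.1 CPM under the siFXR1-LNA label (log2 fold change -4.28, standard error 0.60, edgeR adjusted p = 0.0012). It was found in 158 of 210, 5 of 8, 7 of 111 and 2 of 20 cells. In the other kept cells it had 372, 155, 15.9 and 27.8 CPM, in the same order of groups. The 6 mast cell markers summed to 721, 391, 212 and 131 CPM in the cycling cells and to 1151, 427, 91.2 and 94.7 CPM in the other kept cells. Mcpt4 fell from 216 UMIs to 1 and Tpsb2 from 211 to 3, ratios of 132 (counting interval 23.4 to 5229) and 42.9 (14.5 to 209.8). Nearly all of these UMIs came from siCont-LNA replicate 1 (214 and 206), while siCont-LNA replicate 2 held 2 and 5. Cma1 was called in 11 of 14 alternatives, Tpsb2 in 10, Cpa3 in 9 and Mcpt4 in 8. Without siCont-LNA replicate 1 the log2 fold change of Cma1 was -3.68. The part of free mast cell RNA in these falls was not tested.

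Of the 15 falls, 5 were higher in the other kept cells of both libraries labelled siCont-LNA than in the cycling Wt1 cells, which were the mast cell genes and Isg15, and the rest were not. Gask1b, a kinase-like Golgi protein gene, had 109 and 83.7 CPM against 16.1 and 0 CPM, with at most 14.8 CPM in the other kept cells of any library (log2 fold change -3.06, standard error 0.65, edgeR adjusted p = 0.0259). This call held in 5 of 14 alternatives, with an edgeR adjusted p of 0.63 at 2 or more cycling UMIs and 0.224 without the upper limit, where the log2 fold change was -1.91. Sgcz, which encodes zeta-sarcoglycan, had 69.7 and 377 CPM against 11.1 and 25.1 CPM, and Pde8b, a cyclic AMP phosphodiesterase, had 95.7 and 41.9 CPM against 14.9 and 5.03 CPM. Pbx3, a homeodomain transcription factor, had 257 and 349 CPM against 52.0 and 50.3 CPM and was found in 123, 6, 26 and 7 cells. Pdzrn3, Samd5, Nova1, E330013P04Rik, Plch1 and Gm35533 also fell. Among these falls Pbx3 and Gm35533 were called in 8 of 14 alternatives, Plch1 in 6, Sgcz, Samd5, Isg15 and E330013P04Rik in 5, and Pde8b, Nova1 and Pdzrn3 in 4. For Samd5 all 19 UMIs of siCont-LNA replicate 2 came from 1 cell. The interferon-stimulated ubiquitin-like gene Isg15 had 60.8 and 69.8 CPM against 8.67 and 0 CPM (log2 fold change -3.21, standard error 0.73, edgeR adjusted p = 0.0422), and it was at 296, 364, 43.0 and 43.4 CPM in the other kept cells.

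**Figure D4:**
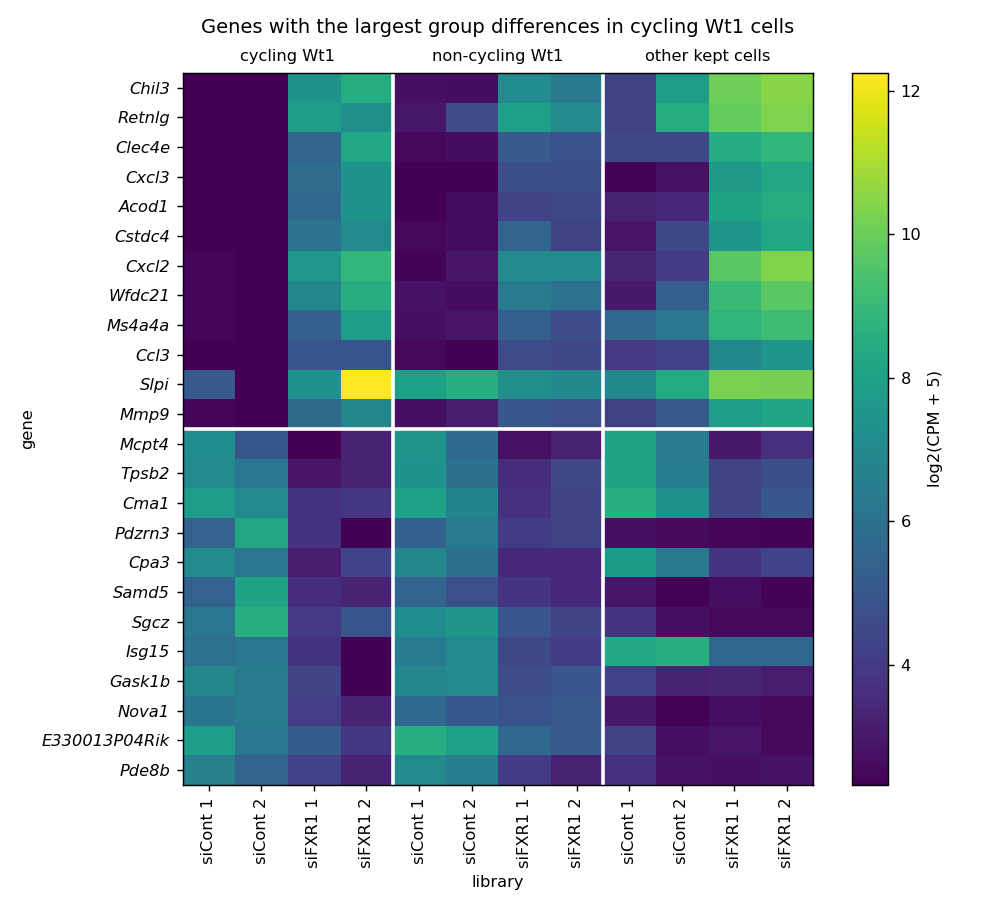
log2(CPM + 5) of the 12 largest rises (top) and the 12 largest falls (bottom) in the cycling Wt1 cells, shown for cycling Wt1, non-cycling Wt1 and other kept cells of each library. Chil3 is brightest in the other kept cells of the libraries labelled siFXR1-LNA (1076 and 1431 CPM) and Slpi stands out in the cycling cells of siFXR1-LNA replicate 2 (4868 CPM), while Gask1b is dark in the other kept cells of each library (at most 14.8 CPM).

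Genes induced by hypoxia and of glycolysis were higher in the cycling cells of the libraries labelled siFXR1-LNA. The counts held 23 of the list's genes and 22 were tested. Of these 8 rose and 0 fell, all 22 log2 fold changes were positive, and their median was 2.16, against 0.02 over all genes tested. Ndrg1, a stress-responsive gene, had 44.4 and 69.8 CPM against 898 and 427 CPM (log2 fold change 3.76, standard error 0.61, edgeR adjusted p = 0.00258). Ero1l, an oxidase of disulfide formation, had 31.1 and 27.9 CPM against 629 and 302 CPM. Vegfa, the vascular growth factor, had 83.0 and 167 CPM against 773 and 568 CPM (log2 fold change 2.64, standard error 0.56, edgeR adjusted p = 0.0259), and it was found in 101 of 111 and 17 of 20 cells labelled siFXR1-LNA. In the other kept cells Vegfa had 11.0, 6.66, 295 and 171 CPM, while the list as a whole summed to 5148, 5407, 13074 and 13796 CPM there, above the cycling Wt1 cells in each library.

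The other hypoxia and glycolysis genes that rose were Bnip3, Slc2a1 (the glucose transporter Glut1), Hk2, Pgk1 and P4ha2, with log2 fold changes from 2.39 to 3.54. The list summed to 3620 and 2707 CPM in the cycling cells labelled siCont-LNA and to 9209 and 10656 CPM in those labelled siFXR1-LNA, and the non-cycling Wt1 cells had 3476, 3780, 8703 and 8975 CPM. In the non-cycling cells, where 8.89% of 11749 genes passed (3.8% higher and 5.08% lower in the libraries labelled siFXR1-LNA), 21 of 23 list genes rose. The interaction test found 0 of 23 list genes whose change differed between cycling and non-cycling cells (edgeR, 0 at an unadjusted p under 0.05, and 0 by DESeq2). All genes tested on this list kept a positive sign in 13 of the 14 alternatives, and in the other, at least 2 cycling UMIs, 15 of 16 did. The number that passed was 0 there, 0 with no upper limit and at least 2 UMIs, and 1 with no upper limit.

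Acute-phase and inflammatory genes rose for 4 of 9 tested and fell for 0. Saa3, serum amyloid A3, had 233 and 41.9 CPM against 4125 and 15644 CPM, and 34618 and 36296 CPM in the other kept cells labelled siFXR1-LNA. In siFXR1-LNA replicate 2, 2 barcodes with 5 and 7 program UMIs held 2017 and 580 of the 3111 Saa3 UMIs, and without them the level there was 3357 CPM. Lcn2 had 8.87 and 0 CPM against 525 and 955 CPM, and Cxcl2 and Nos2 were the other members that passed. Without the 3 leading barcodes 0 of the 7 Nos2 UMIs of siFXR1-LNA replicate 2 remained, and Nos2 was called in 3 of 14 alternatives. The metallothioneins Mt1 and Mt2, which bind zinc and copper, had 94.4 and 0 CPM against 767 and 1413 CPM, and 7.61 and 0 CPM against 156 and 282 CPM. Of 14 Nrf2-related genes, Hmox1 (heme oxygenase) and the cystine transporter Slc7a11 rose and 0 fell. Levels of Saa3, Lcn2, Mt1, Mt2 and Hmox1 in the other kept cells of both libraries labelled siFXR1-LNA were above those in the cycling Wt1 cells.

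Cell-cycle genes themselves passed in neither direction within the cycling cells. Of 31 S-phase genes tested 0 passed, 3 had a positive log2 fold change and the median was -0.89 (11 at an unadjusted p under 0.05, and 0 passed by DESeq2). Of 47 G2/M genes 0 passed (edgeR, 4 at an unadjusted p under 0.05, and 0 by DESeq2), with a median of -0.55. Of 8 histone genes 0 passed, with a median of -0.61 (edgeR, 4 at an unadjusted p under 0.05, and 0 by DESeq2). Tyms, which makes thymidylate, had the lowest value of the S-phase list, with 39.9 and 55.8 CPM against 6.19 and 10.1 CPM (log2 fold change -2.52, edgeR adjusted p = 0.142). The share of members that entered with a single cycling UMI was itself higher in the libraries labelled siFXR1-LNA (68.5% and 80.0% against 54.8% and 37.5%). Lists of G1 regulators, replication and repair, p53 targets, apoptosis, stromal matrix, basement membrane and translation initiation had 17, 20, 16, 17, 12, 12 and 15 genes tested, of which 0 passed (edgeR, with 5, 6, 1, 1, 1, 1 and 1 at an unadjusted p under 0.05, and 0 by DESeq2). With at least 2 cycling UMIs the median of the G2/M list was 0.03 and that of the S-phase list -0.40.

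Of the genes that the study discusses for epithelial cells, 14 were tested outside the rule and 0 passed in the cycling Wt1 cells (edgeR, 3 at an unadjusted p under 0.05, and 0 by DESeq2). In the non-cycling Wt1 cells 1 of 15 passed, downward (edgeR, 7 at an unadjusted p under 0.05, and 1 by DESeq2). The study chose these genes on the same samples. It compared all cells of its epithelial clusters by Wilcoxon tests over cells, with 1 siFXR1-LNA replicate left out, so the sets of cells are unlike. It reported Muc16, Ccnd1 and Fxr1 as lower after siFXR1-LNA. In the cycling Wt1 cells Muc16, the gene of the tumor antigen CA125, had 363 and 321 CPM against 140 and 85.5 CPM (log2 fold change -1.52, standard error 0.48, edgeR adjusted p = 0.195), and the groups did not overlap. Cyclin D1 (Ccnd1), which carries cells through G1, had 243 and 97.7 CPM against 81.7 and 70.4 CPM (log2 fold change -1.24, edgeR adjusted p = 0.432). Fxr1 had a log2 fold change of -0.14 (standard error 0.46, edgeR adjusted p = 0.996), and its values overlapped between the groups. It changed sign in 4 of 14 alternatives.

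Median ratios of cycling to non-cycling cells were near 0 for genes that mark the Wt1 program, with members on both sides. The mesothelial and ovarian list of 24 genes summed to 6372, 5163, 4031 and 4868 CPM in cycling and to 6555, 6921, 3702 and 4694 CPM in non-cycling cells, with a median ratio of -0.04 over 20 genes, of which 1 was higher and 1 lower in all 4 libraries. The 30 long neuronal-type genes that accompany the program, such as Ctnna2, summed to 11924, 15238, 6970 and 6296 CPM in cycling cells and to between 137 and 546 CPM in other kept cells, and their median ratio to non-cycling cells was 0.03, with 4 of 20 higher and 3 lower in all 4 libraries. Between the groups, 0 of 16 mesothelial genes (edgeR, 3 at an unadjusted p under 0.05, and 0 by DESeq2) and 0 of 18 long genes (7 at an unadjusted p under 0.05, and 0 by DESeq2) passed in the cycling cells, with medians of -0.31 and -0.94. The nuclear RNA Malat1 had 22934, 29680, 19366 and 18364 CPM in cycling cells and at most 4444 CPM in the other kept cells. Hemoglobin genes and 2 further red cell genes summed to 62902, 82817, 24851 and 920 CPM in the cycling cells, RNA that these cells are not known to make.

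For 18 genes the change between the groups differed between cycling and non-cycling Wt1 cells (0.161% of 11205 tested, edgeR interaction with the library as a block), 14 (0.125%) upward and 4 (0.0357%) downward, and 0 by DESeq2 (123 at an unadjusted p under 0.05). Many of their UMIs came from single barcodes. In siFXR1-LNA replicate 2, a barcode of 24418 UMIs (12.3% of the UMIs of its 20 members) held 880 of 968 UMIs of Slpi, 60 of 61 of Mgp, all 28 of Itm2a and 97 of 98 of Ctla2a. It had 7 UMIs of the Wt1 program and 1 cycling UMI, and it held 201 of the 262 UMIs of fibroblast markers in that library's members. A further barcode of the same library, with 21321 UMIs, 0 of Wt1 itself, 5 of the program and 1 cycling UMI, held 284 of 304 UMIs of Hmox1 and 330 of 593 UMIs of macrophage markers. In siCont-LNA replicate 2, a barcode with 11689 UMIs, 115 of the program and 9 cycling UMIs held 54 of 56 UMIs of Sntg1 and 13 of 13 of Col24a1, together with 255 of 300 UMIs of fibroblast markers. Without these 3 barcodes, chosen after seeing the data, 11 genes passed, 7 of them among the 18.

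**Figure D5:**
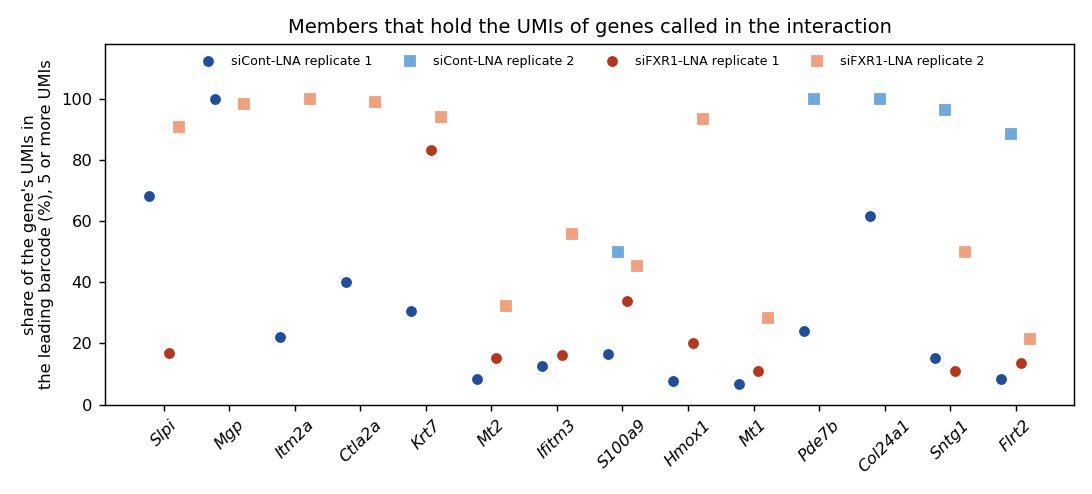
For the 14 genes with the largest interaction effects, the percent of a gene's UMIs among a library's members that came from its leading barcode, for libraries with at least 5 UMIs of the gene. In siFXR1-LNA replicate 2 the share is 90.9% for Slpi, 100% for Itm2a and 93.4% for Hmox1, and in siCont-LNA replicate 2 it is 96.4% for Sntg1, while it is 28.5% or less for Mt1 in every library shown.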

How the data were processed

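Single-cell 3′ RNA libraries of pooled mouse ascites were sequenced by the authors, 2 labelled siCont-LNA and 2 labelled siFXR1-LNA. The deposited matrices hold raw UMI counts per gene and barcode, made by the authors with Cell Ranger 7.0.0 on mm10 per the submitters' processing notes, for 32285 gene identifiers. The total count per library was 78179267 to 113606837 UMIs. Cells were selected by the rule given above, and no doublets were removed (Scrublet scores served as an alternative). UMIs of the selected cells were summed per library. The sums were tested with edgeR 4.0.16 (R 4.3.3, quasi-likelihood, TMM, filterByExpr, Benjamini-Hochberg adjusted p of 0.05), after tests on simulated data. DESeq2 1.42.0 was an alternative. Ratios of cycling to non-cycling cells used a pseudocount of 5 CPM. Shares and list ratios were compared by exact permutation of libraries. Genes named were members of gene lists, the 12 largest called rises and falls whose groups did not overlap, the 12 largest and smallest cycling to non-cycling ratios of the same sign in 4 libraries, the 10 largest interaction effects in each direction, and epithelial genes the study discusses. Members and lists were chosen with earlier results of these data known. Coordinates are of GENCODE vM21. By its methods the study left out 1 siFXR1-LNA replicate, which the sources used here do not name, and both were used here.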

Additional observations from a re-analysis of the deposited data

Results flagged for a closer look

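Chosen because the change between the groups differed between cycling and non-cycling Wt1 cells (edgeR interaction, quasi-likelihood test with Benjamini-Hochberg adjustment), 10 genes had a larger log2 fold change in the cycling cells and 4 a smaller one. The difference of the log2 fold changes was 6.16 for Slpi (adjusted p = 4.04e-26), 4.31 for the matrix Gla protein gene Mgp, 4.04 for Itm2a, 3.53 for Ctla2a and 3.29 for the keratin gene Krt7. In siFXR1-LNA replicate 2 these 5 rested mainly on the barcode of 24418 UMIs. It was 2.54 for Mt2 and 2.34 for Mt1, the metallothioneins, which had 0 UMIs in the 8 cycling cells of siCont-LNA replicate 2. It was 2.53 for Ifitm3, an interferon-induced membrane protein gene, 2.49 for the neutrophil gene S100a9 and 2.38 for Hmox1. Downward it was -8.14 for Pde7b, which had 0 UMIs in the cycling cells of both libraries labelled siFXR1-LNA, so this fitted value is no bound. It was -5.07 for the collagen gene Col24a1, -2.73 for Sntg1 and -1.68 for Flrt2, of which 1 barcode of siCont-LNA replicate 2 held 13 of 13, 54 of 56 and 54 of 61 UMIs.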

How the results depend on the processing

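The count of 77 genes in the cycling Wt1 cells was 42 with DESeq2, 173 with no filter on low counts, 24 with no upper limit on genes, 27 with the leukocyte genes at 0 UMIs, 11 with at least 2 cycling UMIs, 42 with a program sum of at least 10, 35 without the top 5% of Scrublet scores and 0 with no upper limit and at least 2 UMIs (edgeR, 393 at an unadjusted p under 0.05). Leaving out 1 library gave 29 (without siFXR1-LNA replicate 2) to 138 (without siCont-LNA replicate 2). The replicate block gave 123. Over genes, deviations of same-numbered libraries from their group means had a correlation of -0.080. With 2 libraries per group, crossed pairs give the opposite value (0.080) by construction. Barcodes above 4800 genes that met the rest of the rule made up 17.0% and 16.5% in the libraries numbered 1. In those numbered 2 they made up 76.5% and 69.2%. Whether the replicate numbers mark a batch was not tested. In non-cycling Wt1 cells the count of 1044 was 1708 with no filter, 691 with leukocyte genes at 0, 201 with no upper limit, 201 with no upper limit and at least 2 UMIs, and 382 to 1689 without 1 library. The 18 interaction genes became 0 with DESeq2, 2 with no upper limit, 2 with at least 2 UMIs, 3 with Scrublet, 5 with no upper limit and at least 2 UMIs, 11 without the 3 leading barcodes and 4 to 81 without 1 library. The difference in the share of kept cells ran from -1.39 to 0.471 points without 1 library. Single interaction effects turned sign for Slpi (-0.12), Mgp (-2.41) and Ctla2a (-1.20) at a program sum of at least 10, for Mgp (-0.21) and Ctla2a (-1.47) without the 3 barcodes, for Ctla2a with 2 or more cycling UMIs (-0.42) and without siFXR1-LNA replicate 2 (-1.54), for Sntg1 with no upper limit (0.036), and for Itm2a (-1.13), Ctla2a (-1.75), Hmox1 (-0.039) and Flrt2 (0.11) with no upper limit and at least 2 UMIs. Of the other values of named genes, 340 kept their direction and side of the threshold and 219 only their direction. Fxr1, which passed in no setting, was at -0.34 (without siCont-LNA replicate 1) to 0.081 (without siFXR1-LNA replicate 2) without 1 library, 0.13 with no upper limit, 0.044 with at least 2 UMIs and 0.074 with both. The causes were not tested. The 8 cells of siCont-LNA replicate 2 and the 20 of siFXR1-LNA replicate 2 limit every comparison. No upper limit with at least 2 UMIs, and the removal of 3 barcodes, were chosen after seeing the data.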
